A study of Mus musculus with 17 samples.

Results

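The genes of the piRNA pathway and of early germ cells form a module of 34 named genes, chosen as every row of the deposited tables whose RefSeq transcript belongs to one of them, with repeated positions taken once. Of these, 33 had a start site in the tables of the ES cell, standard sperm and unspun sperm libraries, at 38 distinct start sites, out of 21399 genes at 24084 start sites. The listed transcripts of Piwil4 matched no row. In the tables of the supernatant and pellet libraries, 27 of the 34 were listed, out of 16089 genes. The rule names genes and uses no measured value, though the list was drawn up with earlier results of these data known.

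The study digested chromatin with micrococcal nuclease (MNase), which cuts DNA that no protein protects, and sequenced the remaining fragments from both ends. Its labels describe E14, a mouse embryonic stem (ES) cell line of strain 129 X Ola for which no crosslinking is given, digested with 10 units per 1000000 cells and spun, with the supernatant sequenced. They also describe mature sperm of C57/B6J mice aged 10 weeks, taken by swim-up from the cauda epididymis and vas deferens, crosslinked with 1% formaldehyde for 15 min and digested at 1 unit per 100000000 sperm as the standard, of which the supernatant after a spin was likewise sequenced. Further sperm were digested with rising units: 0.5, 2, 10 and 50 units without a spin (unspun), and 1, 5, 20 and 100 units parted by a spin into supernatant and pellet. All digestions ran for 5 min, and no genetic change or drug is given for any sample. Every group held a single library among the 14 analysed, and replicates were lacking throughout. The other 3 samples of the series were not analysed here. Strain, crosslinking and enzyme per cell differ between the ES cell and sperm libraries, so they cannot be told apart from cell type. These tables hold DNA fragments and no transcripts, so the labelled cell types could not be checked against expressed markers. In bulk samples, a promoter packaged in fewer cells and one protected less in every cell cannot be told apart.

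Piwi proteins bind small RNAs of germ cells, the piRNAs, and with them silence transposons. Tudor domain proteins bind methylated arginines of Piwi proteins and hold the pathway together in granules beside the mitochondria, where RNA helicases and nucleases make the piRNAs. Many of these genes, and of the RNA-binding proteins and transcription factors that found the germ line, have CpG-rich promoters that are methylated and silent in somatic cells. In mature sperm, protamines have replaced most histones, and nucleosome-sized fragments come from the chromatin that keeps histones or is otherwise protected.

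Of the 33 start sites used, 18 carried the authors' class HCP (taken as high-CpG promoter), 7 ICP (intermediate) and 1, that of Nanos3, LCP (low). The remaining 7 (Tdrd5, Tdrd9, Tdrd12, Gtsf1, Henmt1, Boll and Dmrtb1) had no class. RefSeq promoters on GRCm38.p6, from 250 bases before to 50 after a start, were at hand for 29 of the 34 genes, as 40 promoters. Tdrd6, Piwil2, Rnf17, Dnd1 and Dmrt1 had none in that table. The member promoters held a median of 20 CG dinucleotides in their 300 bases, with a range of 0 (Nanos2 and 1 promoter of Piwil4) to 48 (Tdrd5), where the median of all 32851 promoters was 7.0.

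The E-box CACGTG, a palindrome that reads the same on both strands and is the core site of Max with Myc or Mga, lay in the promoters of 13 of the 29 genes (44.8%). They were Boll, Ddx25, Ddx4, Fkbp6, Mael, Mov10l1, Piwil1, Pld6, Slc25a31, Sohlh1, Stk31, Tdrd1 and Tdrd9. It was held by 8.09% of all genes, and 11.6% of the 8701 promoters with at least 20 CG dinucleotides did. TCCCGC, the core of the E2F6 site, lay on either strand in 7 genes (24.1%), where 22% of all genes held it: Boll, Ddx25, Ddx4, Mael, Slc25a31, Tdrd5 and Tex19.1. By promoter, 17.5% of the 40 member promoters held it and 20.0% of all. Of the 8701 promoters with at least 20 CG dinucleotides 49.4% did, above the members' share, a difference that was not tested. AACNGTT, a Myb-type site, lay in 1 gene, Piwil4, or 3.45% against 5.01% of all genes. No match of one motif overlapped a match of another, and a match describes the letters and is no evidence of binding.

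The 250 bases before the start are shown for 5 genes that carry the E-box, since that is the sequence feature the members share most often. They are Ddx4 (chr13:112652311-112652560, minus strand), Mael (chr1:166238745-166238994, minus strand), Piwil1 (chr5:128735996-128736245, plus strand), Tdrd9 (chr12:111971309-111971558, plus strand) and Sohlh1 (chr2:25847249-25847498, minus strand), all from RefSeq on GRCm38.p6, 5′ to 3′ along the gene. Capitals mark the E-box CACGTG and, in Ddx4 as GCGGGA and in Mael as TCCCGC, the E2F6-type site.
Ddx4: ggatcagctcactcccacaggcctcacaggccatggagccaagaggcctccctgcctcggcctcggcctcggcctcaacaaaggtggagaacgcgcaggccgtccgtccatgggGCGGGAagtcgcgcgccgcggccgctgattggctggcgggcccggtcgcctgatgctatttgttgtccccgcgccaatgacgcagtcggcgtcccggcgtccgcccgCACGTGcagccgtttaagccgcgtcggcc
Mael: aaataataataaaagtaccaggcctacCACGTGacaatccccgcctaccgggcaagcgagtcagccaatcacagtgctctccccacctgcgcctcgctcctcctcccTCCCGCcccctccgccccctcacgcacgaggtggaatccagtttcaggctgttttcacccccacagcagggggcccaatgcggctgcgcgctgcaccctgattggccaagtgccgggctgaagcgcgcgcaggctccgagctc
Piwil1: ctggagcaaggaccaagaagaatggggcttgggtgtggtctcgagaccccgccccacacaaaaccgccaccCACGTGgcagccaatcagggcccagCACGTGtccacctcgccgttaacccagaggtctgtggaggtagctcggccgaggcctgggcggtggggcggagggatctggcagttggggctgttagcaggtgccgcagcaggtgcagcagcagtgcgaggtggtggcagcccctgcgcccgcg
Tdrd9: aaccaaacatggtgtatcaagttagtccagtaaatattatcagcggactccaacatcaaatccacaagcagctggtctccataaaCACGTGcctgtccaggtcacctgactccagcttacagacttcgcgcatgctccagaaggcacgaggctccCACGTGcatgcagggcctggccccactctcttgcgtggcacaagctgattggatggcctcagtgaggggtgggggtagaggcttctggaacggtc
Sohlh1: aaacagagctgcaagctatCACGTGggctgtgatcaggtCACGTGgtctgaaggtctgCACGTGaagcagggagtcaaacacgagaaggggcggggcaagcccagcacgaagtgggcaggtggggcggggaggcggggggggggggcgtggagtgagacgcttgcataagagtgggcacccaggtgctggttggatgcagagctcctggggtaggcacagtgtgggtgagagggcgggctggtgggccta
Counted from the start, with bases before it negative, the E-box of Ddx4 began at -29 and its E2F6-type site at -136. Piwil1 held 2 E-boxes, at -179 and -154, Tdrd9 held 2, the nearer at -95, and Sohlh1 held 3, at -231, -211 and -192. In Mael the E-box began at -223 and the E2F6-type site at -143. The boxes had no common distance from the start.

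The same stretch is shown for 4 genes without any of the motifs before the start, for the reason that their fragments stood out in the measurements that follow. They are Asz1 (chr6:18109062-18109311, minus strand), Tdrkh (chr3:94412994-94413243, plus strand), Figla (chr6:86016941-86017190, plus strand) and Nanos1 (chr19:60755737-60755986, plus strand). The absence of capitals says only that these letters are not in this window.
Asz1: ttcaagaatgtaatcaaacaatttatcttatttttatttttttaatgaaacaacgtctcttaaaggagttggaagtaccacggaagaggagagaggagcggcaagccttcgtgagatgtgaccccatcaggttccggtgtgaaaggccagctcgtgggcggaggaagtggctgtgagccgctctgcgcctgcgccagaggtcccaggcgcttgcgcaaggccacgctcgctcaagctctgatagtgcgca
Tdrkh: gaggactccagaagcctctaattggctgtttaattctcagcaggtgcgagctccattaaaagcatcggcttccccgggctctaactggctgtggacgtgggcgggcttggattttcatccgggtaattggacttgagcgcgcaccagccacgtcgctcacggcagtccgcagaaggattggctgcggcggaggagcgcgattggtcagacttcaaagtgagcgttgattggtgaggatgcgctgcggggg
Figla: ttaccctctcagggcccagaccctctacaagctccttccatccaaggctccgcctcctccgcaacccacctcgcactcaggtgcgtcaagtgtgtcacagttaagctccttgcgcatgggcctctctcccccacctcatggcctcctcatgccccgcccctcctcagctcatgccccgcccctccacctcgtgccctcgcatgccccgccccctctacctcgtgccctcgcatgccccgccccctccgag
Nanos1: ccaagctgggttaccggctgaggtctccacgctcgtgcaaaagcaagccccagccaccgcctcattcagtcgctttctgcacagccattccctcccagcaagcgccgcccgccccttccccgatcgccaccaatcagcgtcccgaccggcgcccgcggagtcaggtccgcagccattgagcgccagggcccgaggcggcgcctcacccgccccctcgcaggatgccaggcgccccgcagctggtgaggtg
Nanos1 was the richest of the 4, with 34 CG dinucleotides in its 300 bases, against 25 in Tdrkh, 17 in Asz1 and 16 in Figla. The fragment tables are in mm9, so promoters and signal were joined by gene symbol only.

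Within 1000 bp of a start site an average promoter held 32.2 fragments in the ES cell library and 21.6 in the standard sperm library, and 0.142 to 1.03 in the 12 titration libraries. Fragments are equivalents, the table sum divided by what 1 isolated fragment adds. Such depth allowed values of single members in ES cells and standard sperm, and of the pooled members elsewhere. Ratios of sperm to ES cells compare a promoter's share of all signal near start sites, and intervals are exact 95% intervals that cover counting error only.

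Within 1000 bp of the start site the members as a group took about the same share of fragments in both libraries. Together they held 1065 ES cell fragments and 747 standard sperm fragments, or 1.00 (0.944 to 1.07) and 1.05 (0.976 to 1.13) times an average promoter. The pooled log2 ratio was 0.06 (-0.07 to 0.20). With 2000 bp to each side it was 0.10 (0.02 to 0.19), an interval that leaves out 0. Of the 33, 18 had a higher and 15 a lower share in sperm, and the median log2 ratio was 0.03, where the median of all 20520 genes with enough fragments was -0.08. More than 1.5-fold higher in sperm were 5 members, where 17.4% of all genes were, and more than 1.5-fold lower were 4, where 22.6% of all genes were. The higher count lay near the share of all genes and the lower count below it, a difference that was not tested. Among the 18 high-CpG members 13 were higher and 5 lower, the median was 0.12 and the pooled log2 ratio 0.23. Among 9905 high-CpG genes 3386 were higher and 6519 lower, and the median was -0.25. More than 1.5-fold higher were 3 of these members, against 9.40% of high-CpG genes, and 2 were lower, against 29.3%.

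Along the promoters, most members lacked fragments around the start site in both libraries and differed in where the neighbouring signal lay.

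**Figure D1:**
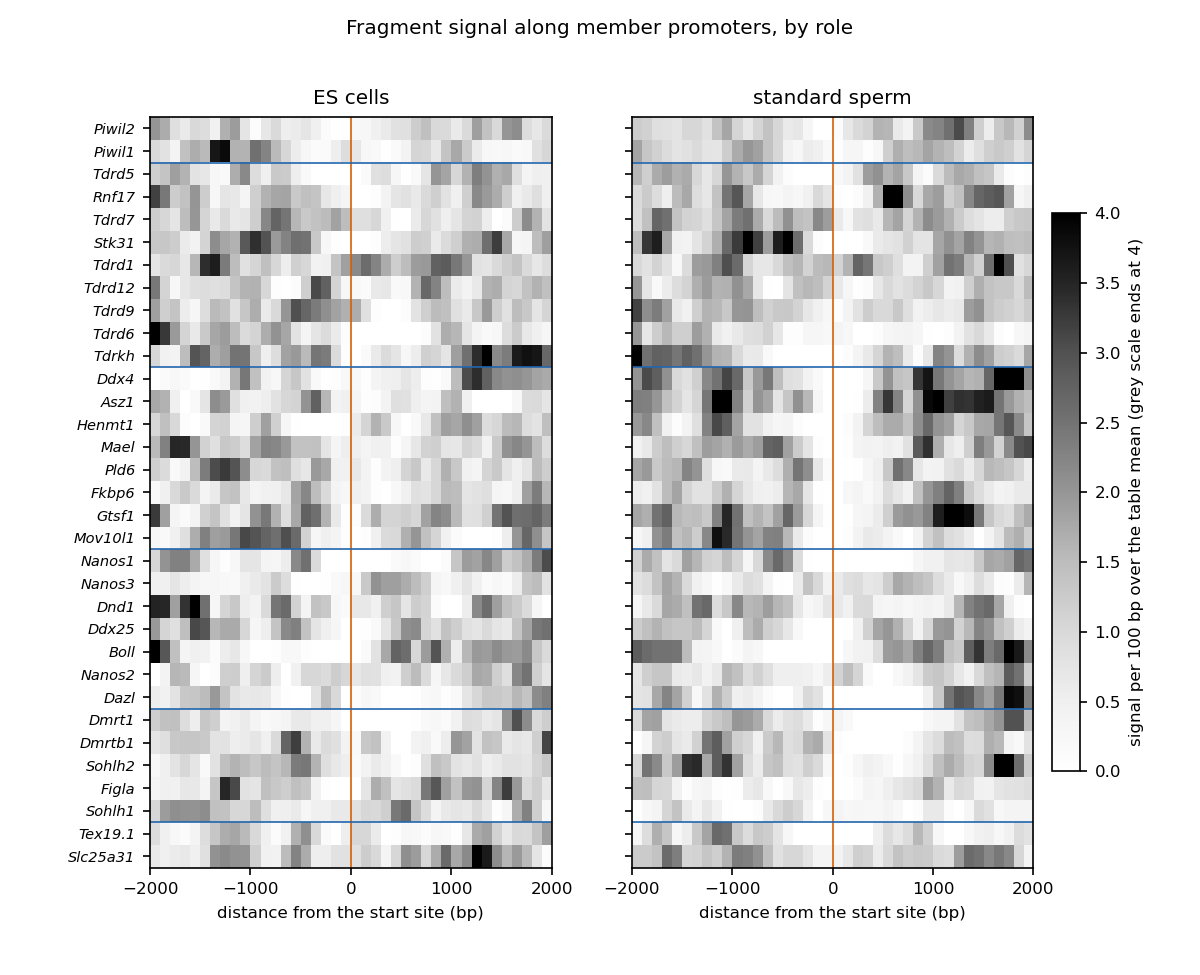
Fragment signal of the 33 members from 2000 bp before to 2000 bp after the start site (x axis, bp) in ES cells (left) and standard sperm (right), averaged over 100 bp and divided by the table mean; darker grey is more signal, and blue lines part the role groups. The pale column at the start site runs through most members, and Tdrd1 and Tdrd7 are among the rows that hold signal there in both libraries.

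**Figure D2:**
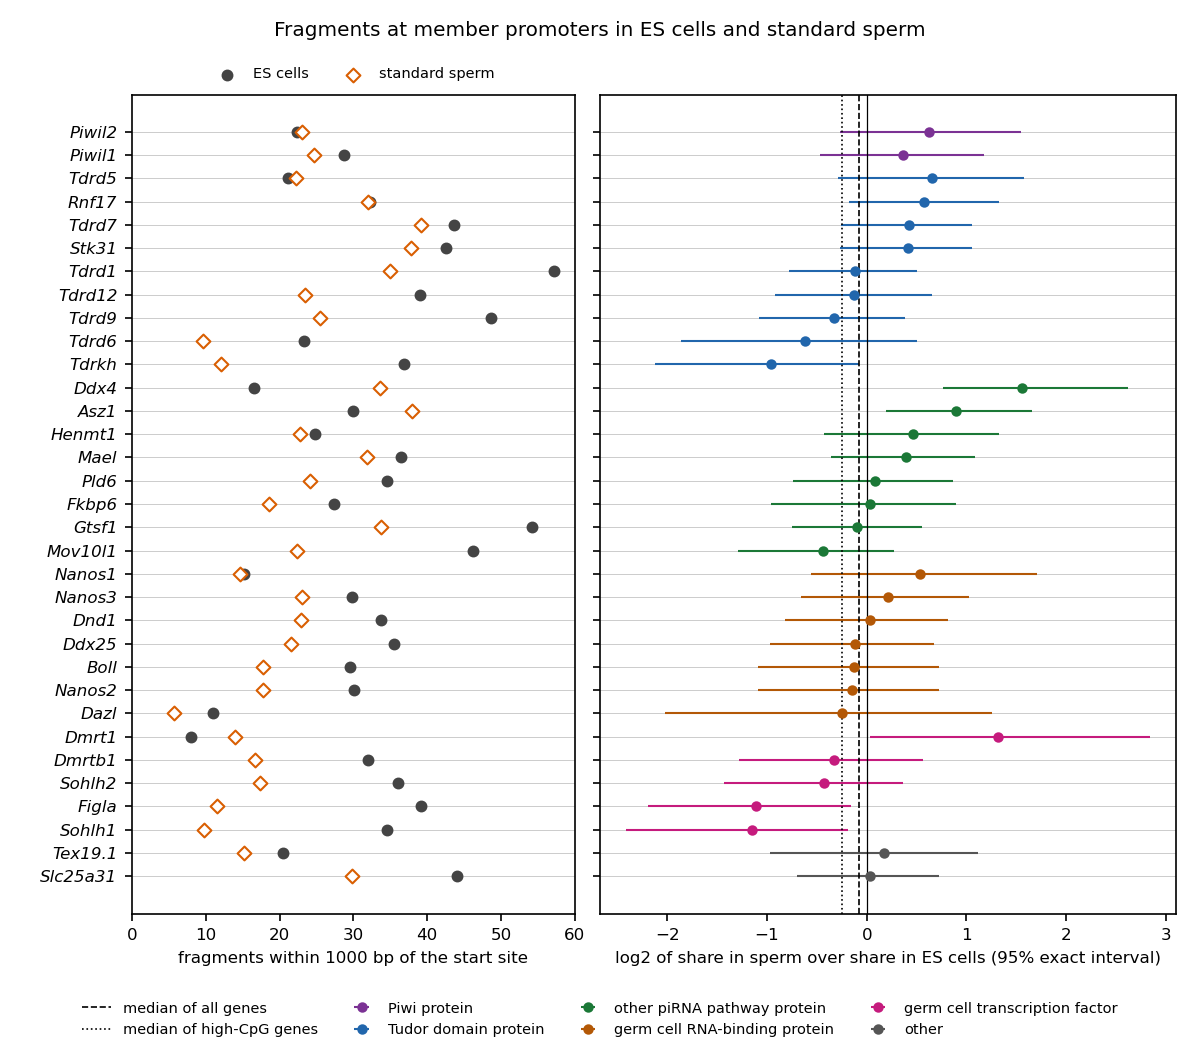
Fragments within 1000 bp of the start site in ES cells (filled circles) and standard sperm (open diamonds) for each member (left), and the log2 ratio of their shares with its exact 95% interval (right), coloured by role. The intervals of Ddx4, Asz1 and Dmrt1 lie above 0 and those of Sohlh1, Figla and Tdrkh below it; the dashed and dotted lines are the medians of all genes (-0.08) and of high-CpG genes (-0.25).

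Exact intervals lay wholly above 0 for 3 members (Ddx4, Dmrt1 and Asz1) and wholly below it for 3 (Sohlh1, Figla and Tdrkh). Among all genes 11.8% lay wholly above and 11.1% wholly below, so these counts of 33 were no larger than among all genes. Among high-CpG genes the shares were 4.09% and 13.9%, beside 3 members above 0 (the same genes) and 1 below (Tdrkh) of the 18 high-CpG members. No correction for the number of intervals was made.

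The Piwi proteins had a higher share in sperm at both genes measured. Piwil1 (Miwi), which acts in pachytene spermatocytes and spermatids, held 28.7 fragments in ES cells and 24.6 in sperm, a log2 ratio of 0.36 (-0.47 to 1.18). Piwil2 (Mili), which is present from fetal germ cells on, held 22.3 and 23, a log2 ratio of 0.62 (-0.27 to 1.55). Both intervals include 0, so neither difference was larger than counting error. Piwil4 (Miwi2), which directs DNA methylation of transposons in fetal germ cells, was not analysed here.

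Of the 9 Tudor domain genes, 4 had a higher and 5 a lower share in sperm, and their median log2 ratio was -0.12. Tdrkh, a mitochondrial protein needed for trimming piRNAs, held 36.8 fragments in ES cells and 12 in sperm, a log2 ratio of -0.96 (-2.12 to -0.08). Tdrd6, a scaffold of the chromatoid body of spermatids, held 23.3 and 9.64, a log2 ratio of -0.62 (-1.86 to 0.50). These were the lowest of the group, and the interval of Tdrkh alone left out 0. At the other end were Tdrd5 at 0.65 (-0.29 to 1.58), with 21.1 and 22.2 fragments, and Rnf17, which has several Tudor domains, at 0.57 (-0.18 to 1.33), with 32.2 and 32. Tdrd7 (43.6 and 39.1 fragments) and Stk31, a kinase with a Tudor domain (42.6 and 37.8), were at 0.42 and 0.41. Tdrd1, which binds Piwil2, Tdrd9, a helicase, and Tdrd12 held 39 to 57.2 fragments in ES cells and 23.5 to 34.9 in sperm, with log2 ratios of -0.12, -0.33 and -0.13. None of these intervals left out 0.

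The other 8 piRNA proteins included the 2 highest ratios among the piRNA genes measured. Ddx4 (Vasa), the RNA helicase that marks germ cells, had 16.5 fragments in ES cells and 33.6 in sperm, although the sperm library is the shallower one, a log2 ratio of 1.56 (0.77 to 2.62). Asz1, an ankyrin repeat protein of the outer mitochondrial membrane, had 30 and 37.9, a log2 ratio of 0.90 (0.19 to 1.66). These 2 were the only members of the group past 1.5-fold, and its median was 0.23 with 6 of 8 higher. Mael, a protein of the germ granule, held 36.5 and 31.9 fragments, a log2 ratio of 0.39 (-0.36 to 1.09). Henmt1, which methylates the end of piRNAs, was at 0.46, Pld6, a mitochondrial enzyme of piRNA biogenesis, at 0.08, and Fkbp6, a co-chaperone, at 0.03. Gtsf1, a cofactor of Piwi proteins, was at -0.10 with 54.2 and 33.7 fragments, and Mov10l1, the helicase that binds piRNA precursors, at -0.44 with 46.2 and 22.4. The intervals of these 6 include 0.

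The differences of Ddx4 and Asz1 came from DNA away from the start site. With 200 bp to each side their log2 ratios were -0.04 and -0.55, opposite in sign, on few fragments and with intervals that reach far to both sides of 0. With 2000 bp to each side they were 1.02 (0.57 to 1.5) and 1.33 (0.85 to 1.81). In the flanks, 1000 to 2000 bp on each side, Ddx4 held 50.9 fragments in ES cells and 65.7 in sperm, and Asz1 27.8 and 67.5.

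The 7 germ cell RNA-binding proteins lay close to 0, from -0.25 to 0.53 with a median of -0.12, and none was past 1.5-fold. Dazl, a translational regulator needed for germ cell development, had the fewest fragments of any member in sperm, 5.73, and 11 in ES cells, a log2 ratio of -0.25 (-2.02 to 1.26). At so few fragments a difference of that size was not detectable. Nanos1 held 15.2 and 14.7 fragments, a log2 ratio of 0.53 (-0.56 to 1.71). Nanos2 and Nanos3, translational repressors that keep spermatogonial stem cells and primordial germ cells, were at -0.15 and 0.21, and Dnd1, which works with them, at 0.03. Ddx25, a helicase of spermatids, was at -0.12. Boll, of the same family as Dazl, was at -0.13 with 29.5 and 17.8 fragments at the start site used. At its second start site, which the authors classed as high-CpG and which lies 762 bp away, it held 8.45 and 13.5, a log2 ratio of 1.19.

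Germ cell transcription factors were lower in sperm at 4 of 5 genes, with a median log2 ratio of -0.43. Sohlh1, a basic helix-loop-helix factor of spermatogonia and oocytes, held 34.6 fragments in ES cells and 9.77 in sperm, a log2 ratio of -1.15 (-2.41 to -0.19). Figla, the oocyte factor that turns on zona pellucida genes, held 39.2 and 11.5, a log2 ratio of -1.11 (-2.19 to -0.16). Sohlh2 was at -0.43 (-1.43 to 0.36) and Dmrtb1 at -0.33 (-1.28 to 0.56). Dmrt1, which keeps the male fate of germ and Sertoli cells, was the exception, with 7.95 and 14 fragments and a log2 ratio of 1.32 (0.03 to 2.84). It rested on the fewest ES cell fragments of any member, and with 2000 bp to each side it was 0.48 (-0.13 to 1.07).

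The remaining 2 genes did not differ beyond counting error. Tex19.1, which restrains transposons in germ cells and placenta, was at 0.17 (-0.97 to 1.12), and Slc25a31 (Ant4), the mitochondrial ADP/ATP carrier of germ cells, at 0.03 (-0.70 to 0.73). Scaling the libraries to high-CpG promoters in place of all promoters raised every log2 ratio by 0.24, that of members and other genes alike. After it 12 members were more than 1.5-fold higher and 3 lower, in place of 5 and 4. The shares of all genes under that scaling were not computed, so these counts say nothing particular to the members. The intervals of Figla, Tdrkh and Sohlh1 then reached 0.08, 0.16 and 0.05 and no longer left out 0, and with 2000 bp to each side Tdrkh was at -0.43 (-0.89 to 0.00).

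The flanks showed the same spread between members. They held 1532 member fragments in ES cells and 1267 in standard sperm, 1.13 (1.08 to 1.19) and 1.23 (1.16 to 1.3) times those of an average promoter, and the pooled log2 ratio was 0.12 (0.01 to 0.23). High-CpG promoters as a class were at 1.08 and 0.994. With intervals wholly above 0, Asz1 (log2 ratio of the flanks 1.64, 0.99 to 2.34), Sohlh2 (1.32, 0.70 to 2.02) and Ddx4 (0.75, 0.21 to 1.32) were higher in sperm. Sohlh1 (-1.41, -2.60 to -0.61) and Figla (-1.0, -1.90 to -0.28) were lower, which makes 3 and 2 of 33 members, where 12.3% and 11.9% of 20691 genes lay wholly above and below 0. Past 1.5-fold were 5 members higher, against 15.4% of all genes, and 3 lower, against 18.4%. Of the 18 high-CpG members 4 were higher and 1 lower by that measure, against 9.39% and 21.3% of high-CpG genes. Ddx4, Asz1, Sohlh1 and Figla thus kept their direction outside the window of the first comparison, while the flank intervals of the other 2, Dmrt1 (0.18, -0.53 to 0.85) and Tdrkh (-0.29, -0.81 to 0.21), include 0. Sohlh2 did not, with 30.9 and 59.6 flank fragments against 36 and 17.4 within 1000 bp. The flanks were chosen for this comparison after their values were seen.

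At the start site itself, member promoters were depleted of fragments in both libraries. Pooled over the 33, the upstream ratio, mean signal of the 200 bp before the start divided by that of the flanks, was 0.367 (0.275 to 0.477) for ES cells and 0.254 (0.172 to 0.358) for standard sperm. The downstream ratio, of the 300 bp after the start, was 0.421 (0.340 to 0.518) for ES cells and 0.212 (0.150 to 0.288) for sperm. Intervals of the downstream ratio did not overlap between the libraries, and those of the upstream ratio did. High-CpG promoters as a class went from 0.316 to 0.169 downstream, also lower in sperm. Downstream ratios were lower in sperm at 24 of 33 members (72.7%), where 60.2% of all genes were.

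**Figure D3:**
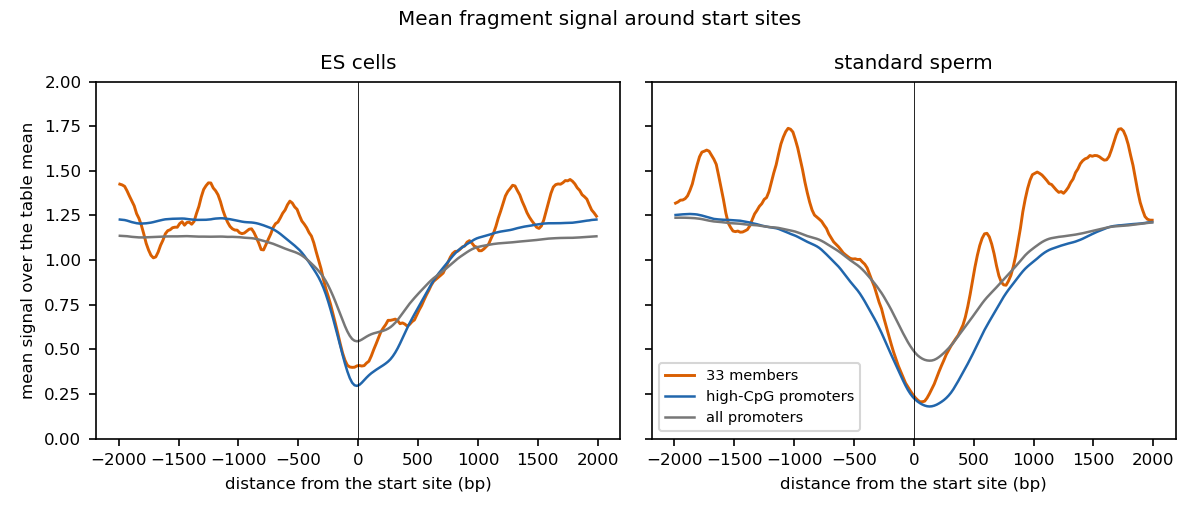
Mean signal over the table mean (y axis) from 2000 bp before to 2000 bp after the start site (x axis, bp) for the 33 members, all high-CpG promoters and all promoters, in ES cells (left) and standard sperm (right), smoothed over 5 bins. The member curve dips at the start site in both and lies lowest there in sperm, where the pooled downstream ratio is 0.212 against 0.421 in ES cells.

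Gene by gene, 22 of 33 members had an upstream ratio below 0.5 in ES cells, where 56.3% of all genes and 73.4% of high-CpG genes did, and 27 had one in sperm, against 59.1% and 77%. Downstream ratios below 0.5 were found at 21 members in ES cells, against 57.9% and 75%, and at 28 in sperm, against 69.8% and 89.1%. The 18 high-CpG members gave 14, 17, 16 and 17 in the same order, shares of 77.8%, 94.4%, 88.9% and 94.4%. Members that were depleted in ES cells tended to be depleted in sperm: the Spearman correlation of the upstream ratios across the 33 genes was 0.74, and 0.44 for the downstream ratios. These are descriptions over genes that share both libraries and a range of base compositions.

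All 8 of the other piRNA proteins were below 0.5 on both sides of the start site in sperm, with medians of 0.0286 upstream and 0.0706 downstream. ES cell medians were 0.253 and 0.283, and the downstream ratio was lower in sperm at all 8. Asz1 had an upstream ratio of 0.573 in ES cells against 0.0606 in sperm, and a downstream ratio of 0.207 against 0.00449. These downstream ratios rest on 0.864 and 0.0455 fragments, over flanks of 27.8 and 67.5. Ddx4 was at 0.0982 and 0.149 in ES cells and at 0.0346 and 0 in sperm, and Mael at 0.278 and 0.291 and then 0.0225 and 0.0902. A count of 0 allows up to 3 fragments, so ratios near 0 cannot be ordered. Henmt1 had downstream ratios of 1.07 in ES cells and 0.0938 in sperm, on 6.05 and 0.636 fragments.

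Nanos1 was the only member with no fragment from 200 bp before to 300 bp after its start site in either library, on flanks of 55.9 and 36.4 fragments. Its promoter, printed above, is among the CG-rich ones. Tdrd5 and Boll also had no fragment in the upstream 200 bp in either library, and Figla had none in ES cells. Stk31 (0.00816) and Piwil2 (0.0102) followed in ES cells. In sperm the upstream ratio was 0 at 9 members: Ddx25, Tdrd5, Tdrkh, Piwil2, Mov10l1, Henmt1, Tex19.1, Nanos1 and Boll, which cannot be ranked against each other. The share of all genes at 0 was not computed, so this count cannot be read as a trait of the members.

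Signal just before the start site varied widely among the Tudor domain genes, which held both the highest and some of the lowest ratios. In ES cells the highest upstream ratios were those of Tdrd7 (1.68), Tdrd9 (1.55), Tdrd1 (1.12) and Nanos2 (1.06), and in sperm those of Tdrd7 (1.54), Dmrtb1 (1.10), Tdrd12 (1.09) and Nanos3 (0.948). Tdrd7 was the one gene in both sets, with 6.09 fragments in the 200 bp in ES cells and 5.41 in sperm. Tdrd9 went from 6.41 fragments to 0.955, and Nanos2 from 4.09 to 1.05. Tdrd12 and Dmrtb1 held more in sperm, 3.41 and 3.27 fragments, than in ES cells, 2.50 and 2.27. At such counts a difference between the libraries was not detectable. For Tdrd1 the start site at 56905201 on chromosome 19 of mm9 had the most signal and was used. Its other 3, at 56900698 to 56900775, held 34.6 to 35.2 fragments in ES cells and 21.3 to 22.5 in sperm, with log2 ratios of -0.05 to -0.10.

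Members with more CG dinucleotides tended to have lower ratios at the start site. Across the 20 members with a single promoter in the RefSeq table, CG dinucleotides in the 300 bases had a Spearman correlation of -0.65 with the upstream ratio in ES cells, -0.68 with that in sperm, -0.69 with the downstream ratio in ES cells and -0.33 with that in sperm. With the log2 ratio of sperm to ES cells it was 0.42. The points share their libraries, and base composition can itself move MNase cutting and amplification, whose part was not tested. The 13 genes with an E-box had median upstream ratios of 0.312 (ES cells) and 0.0346 (sperm), against 0.418 and 0.0840 for the 15 measured genes without it. Genes were sorted by an E-box in any of their promoters, so the box need not lie at the start site measured. At Tdrd1 the start site used lies 4426 to 4503 bp from its others, and its promoter with 3 CG dinucleotides held no E-box. Upstream ratios below 0.5 were found at 8 of 13 and 9 of 15 in ES cells and at 12 of 13 and 11 of 15 in sperm. Downstream medians were 0.291 against 0.565 in ES cells and, the other way round, 0.126 against 0.0632 in sperm, where 11 of 13 and 13 of 15 were below 0.5. In ES cells both medians were lower with the E-box, and the differences were not tested. The sperm medians were those of genes with less than 1 fragment in the window. They were Ddx4 (0.227) and Gtsf1 (0.500) upstream and Ddx25 (0.636) and Figla (0.182) downstream, so the sperm medians cannot be ordered. The median sperm to ES cell log2 ratios with and without an E-box were 0.03 and -0.10, with 7 genes higher in sperm in each set.

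Along the MNase titration of sperm, the members could be read only as a pool. No member exceeded 4.67 fragments in any titration library (Slc25a31, 100 units, supernatant), and 3 to 26 members had any signal in a library. In the unspun series the members' pool was 1.36 (0.972 to 1.90), 1.46 (1.03 to 1.99), 0.917 (0.561 to 1.42) and 1.25 (0.832 to 1.81) times an average promoter at 0.5, 2, 10 and 50 units. These rest on 37, 39, 20 and 28 fragments. In the supernatant it was 1.00 (0.575 to 1.69), 0.852 (0.395 to 1.52), 0.918 (0.524 to 1.44) and 1.48 (1.06 to 2.01) at 1, 5, 20 and 100 units, on 15, 10, 17 and 41 fragments. In the pellet it was 0.869 (0.161 to 2.29), 1.51 (0.808 to 2.48), 0.659 (0.253 to 1.3) and 0.926 (0.564 to 1.39), on 3, 14, 7 and 21 fragments. The intervals at 2 units unspun and 100 units supernatant left out 1, and within each series all 4 intervals overlapped.

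**Figure D4:**
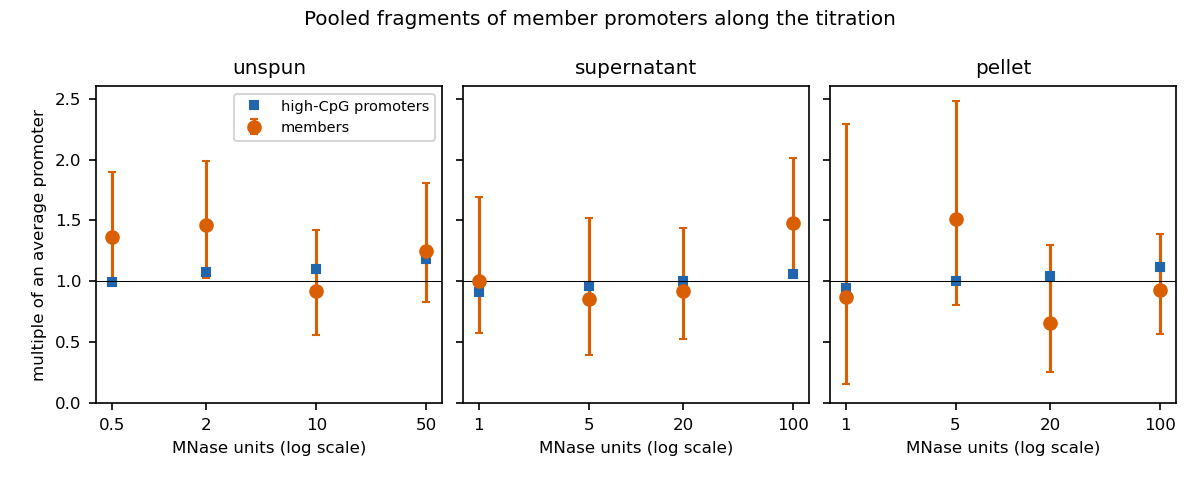
Pooled fragments of the members within 1000 bp of the start site as a multiple of an average promoter (y axis), by MNase units (x axis, log scale) in the unspun, supernatant and pellet series, with exact 95% intervals, 1 library per point; squares are all high-CpG promoters. Intervals of the members overlap one another within each series, and the pellet at 1 unit rests on 3 fragments.

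With the 4 doses summed, the members' pool was 1.27 (1.06 to 1.51) in the unspun series, 1.14 (0.901 to 1.4) in the supernatant and 0.976 (0.710 to 1.29) in the pellet, where high-CpG promoters were at 1.08, 0.999 and 1.07. In the 2 unspun libraries of fewest units the members' pool was 1.41 (1.12 to 1.77) times an average promoter and in the 2 of most units 1.09 (0.802 to 1.44). In the supernatant the order was the other way, 0.935 (0.605 to 1.38) and then 1.25 (0.945 to 1.61). Neither pair of intervals was separate.

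In the unspun libraries member signal after the start site stood above that of the flanks. The downstream ratio of the pool was 2.18 (1.35 to 3.38) over the 4 unspun doses, on 27 fragments against 83 in the flanks, where high-CpG promoters were at 1.05 (1.02 to 1.08) and all promoters at 1.09. The upstream ratio was 1.75 (0.884 to 2.99), on 14 fragments, and its interval includes 1. The downstream ratio was 1.48 (0.697 to 2.70) at the 2 lower doses and 3.65 (1.83 to 7.21) at the 2 higher, with overlapping intervals. High-CpG promoters were at 0.762 and 1.47 downstream. Any downstream signal was found at 24 of 33 members and 1 fragment or more at 11, with the most at Pld6 (2.86), Slc25a31 (2.55) and Boll (2.05). The shares of all promoters with such signal were not computed. In the titrated supernatant the downstream ratio was 0.940 (0.451 to 1.78) and in the pellet 1.04 (0.339 to 2.31). Both intervals include 1 and overlap that of the unspun series. These 2 series cover 27 members, as counts of fragments of unknown size in wider bins, so they are not like for like with the unspun pileups. The standard sperm library, a spun supernatant in the same kind of table as the unspun libraries, had the 0.212 (0.150 to 0.288) given above, and its interval is apart from theirs. It also differs from them in units of MNase and in depth, which cannot be told apart from the spin.

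Single promoters were tested for dose and fraction in the 8 supernatant and pellet libraries with edgeR's quasi-likelihood test. Of 6626 promoters with enough counts, 13 were members, and 0 promoters, and so 0% of all, passed an adjusted p of 0.05 for the dose slope in either direction or for supernatant against pellet. At an unadjusted p of that size there were 590 (8.90%) and 469 (7.08%) promoters, of which 1 and 2 were members, and DESeq2 gave 0 calls for either, with 276 and 251 at the unadjusted level. With each dose taken as a pair of supernatant and pellet, edgeR gave 0 calls for the fraction and 27 promoters (0.407%) at the unadjusted level, none of them a member. For Nanos1 the slope was 1.01 log2 units per doubling of MNase units (unadjusted p = 0.029, edgeR adjusted p = 0.5). Fkbp6 and Tdrkh were listed only in the supernatant, with 16 and 19 counts in all and 0 in the pellet (edgeR adjusted p = 0.43 for both). These 3 do not pass the test. Slopes were above 0 at 11 of 13 members with a median of 0.16, where all promoters had a median of 0.27 and 77.2% above 0. Scaled by library totals alone, the median of all promoters moved to 0.12 with 62.8% above 0, and the members to 0.07 with 8 of 13.

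Of 13 further genes of the piRNA pathway that are no members, 12 were in the tables, all but Spocd1, with a median sperm to ES cell log2 ratio of -0.06. Of these, 5 were higher and 7 lower in sperm, with 3 and 2 past 1.5-fold, where 17.4% and 22.6% of all genes were. Tex15, a nuclear partner of Piwil4, held 64.1 fragments in ES cells and 68.3 in sperm, a log2 ratio of 0.67 (0.15 to 1.18). Wdr77, the partner of the arginine methyltransferase Prmt5 that marks Piwi proteins for Tudor domains, held 32.6 and 9.82, a log2 ratio of -1.06 (-2.33 to -0.09). Mybl1, the transcription factor of pachytene piRNA genes, was at -0.09. Downstream ratios below 0.5 were found at 9 of the 12 in ES cells and 9 in sperm. Among all genes the shares were 57.9% and 69.8%, and among high-CpG genes 75% and 89.1%.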

How the data were processed

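MNase fragments were measured in 14 libraries of mouse ES cells and sperm. The submitters' processing notes name Bowtie (no version), SAMtools 0.1.16 and the mouse build mm9. Of 6 libraries (ES cells, standard sperm and the unspun doses) the authors deposited a signal: whole-number pileup in bins of 20 bp reaching 2000 bp from each start site, for nucleosome-sized fragments according to the tables' names. For the supernatant and pellet libraries the authors deposited counts per bin at start sites, each with a CpG class, and neighbouring rows shared the same values at 50 bp per bin, over 5000 bp to each side, and not at the 20 bp of their header. The fragment size of these counts is not known, and neither kind of table is scaled to depth. Rows run along the gene, since shared DNA matched only when turned by strand (99.9% to 100% of bins).

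An isolated fragment adds a median of 22 to the pileup and 3.0 counts, and sums were divided by these. Isolated runs held 108.0 in the ES cell and 44.0 in the standard sperm library, stacks of several fragments, and at 1 unit, in supernatant and pellet, 89.5% of isolated runs covered 1 or 2 bins, so their fragments are less certain. No molecular identifiers are named in the labels, and intervals (Clopper-Pearson for ratios, Poisson for multiples) cover counting error only. They take each fragment as an independent draw, so where fragments stack they can be too narrow, which was not corrected. The deep libraries held 1762509 and 1272531 fragments, the unspun 29492 to 41419, the supernatant 39632 to 75418 and the pellet 12654 to 52624.

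The members and lists were chosen with earlier results of these data known. Where a gene had more than 1 start site, that of the highest mean share stood for it, a choice that favours sites with signal. A pseudocount of 22 was added before the log, and genes with at least 10 fragments over both libraries were compared. Start-site ratios divide the mean signal 200 bp upstream or 300 bp downstream by that of the flanks. edgeR 4.0.16 was fitted to deposited counts of 1000 bp to each side with fraction and log2 units, on promoters with at least 15 counts, and DESeq2 1.42.0 was the alternative. That fit takes the 2 fractions of a dose as independent, its spread is over doses, not animals, and 1 fragment adds about 3.0 counts. On simulated counts of 6626 promoters the dose test recovered 95 of 100 slopes of 1 and 15 of 100 slopes of 0.5. These slopes are log2 units per doubling of MNase units, large changes over 1 to 100 units. The simulated fragments had Poisson error, with no further spread between libraries and no effect of fraction on single promoters. Recovery in the real libraries can therefore be lower. The 5-unit and 20-unit pellet labels disagree on units, and the title was followed. Symbols came from RefSeq transcripts of GRCm38.p6, used for names. Values are given in full for members whose interval left out 0, for the 4 highest and lowest upstream ratios in each deep library and for Dazl, Ddx4, Mael, Piwil1, Piwil2 and Piwil4.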

Additional observations from a re-analysis of the deposited data

How the results depend on the processing

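With 200 bp to each side the pooled log2 ratio of sperm to ES cells was -0.42 (-0.92 to 0.06), an interval that includes 0. At that window 10 members were more than 1.5-fold higher and 8 lower. No minimum of fragments was set there and the shares of all genes were not computed, so these counts cannot be read as a trait of the members. The log2 ratios of Ddx4 (-0.04) and Asz1 (-0.55) changed sign, each on few fragments. Scaled to high-CpG promoters the pooled ratio was 0.30 (0.17 to 0.44) and the median 0.27. With that scaling 12 members were more than 1.5-fold higher, since every ratio moves by the same amount. The share of all genes past 1.5-fold was not recomputed under that scaling. With 2000 bp to each side the pooled ratio was 0.10 (0.02 to 0.19), and this interval and that of the scaled ratio left out 0. With 200 bp to each side the unspun pool over 4 doses was 1.62. In edgeR, 1 promoter that is no member passed for supernatant against pellet with no filter on low counts, and 1 for the dose slope over the whole table span. The other 69 recomputed summary values and 34 values of single genes stayed within the counting interval (the median within as wide a margin) or, for counts, within 1.5 times, under windows of 2000 bp, a pseudocount of 5 fragments, other flanks, all start sites summed, the fits named above and, added after seeing the data, the start site of the count tables and the pools without the 1-unit libraries. With the replicate block of each dose as a pair of fractions, also added later, edgeR called 0 promoters and 0 members for the fraction, and the unadjusted count was 27 in place of 469. Depth limits single members to the ES cell and standard sperm libraries, and no value has a replicate.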

Other observations

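Genes that found or accompany the germ line but belong to no piRNA step had a median close to that of the members and of all genes. Over 20 such genes the median sperm to ES cell log2 ratio was 0.04, where the members were at 0.03 and all genes at -0.08. Of the 20, 11 were higher and 9 lower. In each direction 3 were past 1.5-fold, where 17.4% of all genes were higher and 22.6% lower by that much. Tfap2c, a transcription factor of primordial germ cells, held 25.7 fragments in ES cells and 3.73 in sperm, a log2 ratio of -1.92 (-4.10 to -0.60). Tex11, a meiotic gene of the X chromosome, held 11.1 and 20.6, a log2 ratio of 1.41 (0.39 to 2.71). Sall4, a factor shared by ES cells and germ cells, was at 0.85 (0.01 to 1.75). These 3 were named after their values were seen.

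Of 14 genes that repress germline promoters in other cells, 5 were more than 1.5-fold lower in sperm and 0 higher, where 22.6% and 17.4% of all genes were. Their median log2 ratio was -0.22, close to the -0.25 of high-CpG genes. L3mbtl2, a subunit of the E2F6 complex, held 55.7 fragments in ES cells and 19.4 in sperm, a log2 ratio of -0.90 (-1.82 to -0.21). Max, the E-box partner of Mga, held 35.5 and 12.4, at -0.87 (-2.05 to 0.01), and Mga was at -0.18 (-1.06 to 0.65). The interval of L3mbtl2 left out 0 and those of Max and Mga did not.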
